A study of Mus musculus with 20 samples.

Results

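Malat1, Neat1, Pvt1, Gas5, Snhg1, Snhg12 and Miat are long noncoding RNAs, chosen by name from the gene table of 20 mouse breast tumors. All 7 have a row among the 43346 genes of the table, and 6 of them passed the filter on low counts that left 18883 genes for testing. Miat did not pass and is described by its counts. Whole-tumor RNA was sequenced, so that neither the nuclear fraction nor retention in the nucleus was measured.

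Each tumor came from its own female [BALB/c-neuT x FVB/J] F1 mouse, from hemizygous transgenic BALB/c males mated with wildtype FVB/J females, studied up to an age of 20 weeks. The neuT transgene is an activated rat Her2/neu oncogene under the MMTV promoter, which drives it in mammary epithelium. All 20 tumors carry it, and no normal mammary tissue is among the samples. The sample titles put 9 tumors in a Lo and 11 in a Hi group, and the sources used here do not say what these words stand for.

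Malat1 and Neat1 are neighboring genes whose RNAs stay in the nucleus. Malat1 RNA gathers in nuclear speckles, where splicing factors are stored, and Neat1 RNA is the scaffold on which paraspeckles form. Gas5, Snhg1 and Snhg12 are host genes that carry small nucleolar RNAs (snoRNAs) in their introns, and their spliced RNAs are exported and degraded through nonsense-mediated decay. Pvt1 is transcribed next to the Myc oncogene, and Miat RNA forms nuclear granules of its own, mostly in neurons. The libraries were made with a kit that selects polyadenylated RNA, whereas mature Malat1 RNA and the long form of Neat1 end in a triple helix in place of a poly(A) tail, so that their counts depend on how they were captured.

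Host genes of snoRNAs belong, together with the genes of ribosomal proteins, to the class that starts in a tract of pyrimidines (a 5'TOP). The start sites of these RNAs are shown because genes of the 5'TOP class are compared with them below. RefSeq promoter entries (GRCm38.p6) were found for 5 of the 7 RNAs. Each line holds 60 bases around the annotated start, 5′ to 3′, with the longest pyrimidine run that begins within 10 bases of the start in capitals.
Gas5, second entry, chr1:161035136-161035195, plus strand: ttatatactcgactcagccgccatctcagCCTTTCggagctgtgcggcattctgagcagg
Snhg1, chr19:8723457-8723516, plus strand: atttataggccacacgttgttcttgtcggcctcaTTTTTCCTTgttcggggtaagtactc
Snhg12, chr4:132308648-132308707, plus strand: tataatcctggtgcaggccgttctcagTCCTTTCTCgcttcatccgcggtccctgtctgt
Malat1, chr19:5802643-5802702, minus strand: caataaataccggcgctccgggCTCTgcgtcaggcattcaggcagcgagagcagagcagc
The run had 9 pyrimidines at Snhg1 and at Snhg12, 6 at this entry of Gas5 and 4 at Malat1. Among 32851 promoter entries, 6.87% held a run of at least 9 and 25.3% a run of at least 6 at the same place. The other Gas5 entry held a run of 3, and the Miat entry one of 7. The palindrome TGACGTCA, the full cyclic AMP response element, occurred in the whole second Gas5 entry and in 1.79% of all entries (the letters read the same on both strands). Its shorter form TGACGT, which the palindrome also contains, occurred at Malat1 and this Gas5 entry and in 7.51% of entries on either strand.

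Counts on genes summed to between 38765682 and 65465755 per tumor. Levels between tumors are given as CPM (counts relative to the TMM-adjusted library size), and levels between genes as RPKM (the same counts per kilobase of the length listed for the gene). The overlapping genes Yam1 and AY036118, which lie over a ribosomal RNA gene, drew from 6.29% to 27.7% of all counts, depending on the tumor. Their share was 18.4% ± 6.08 (SD, n = 9) in the Lo and 13.7% ± 3.13 (SD, n = 11) in the Hi tumors (two-sided exact permutation test, p = 0.0377). Epithelial marker genes (Epcam, Krt8, Krt18, Krt19 and Cdh1) summed to between 2364 and 3755 CPM, and none of them was at 0 in any tumor.

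Per length, Malat1 was the most abundant of the 7 RNAs. It was at 345 ± 117 RPKM (SD, n = 20), above 99.5% of the genes tested. Neat1 followed at 42.7 ± 17.8 RPKM, Gas5 at 23.9 ± 4.53 RPKM and Snhg1 at 13.9 ± 1.36 RPKM. Snhg12 was at 4.14 ± 0.914 RPKM, close to the median gene (4.09 RPKM), Pvt1 at 1.05 ± 0.151 RPKM and Miat at 0.0217 ± 0.0160 RPKM. This order was the same in all 20 tumors, except that Neat1 lay below Gas5 in Lo 4, at 20.3 against 22.2 RPKM. The ranges over tumors overlapped for Neat1 with Gas5 and for Gas5 with Snhg1, and for no other neighbors in the order. Neat1 was scaled by its whole span of 20771 bases, although its short form, counted in the same row, covers only part of it. Its RPKM and its place in this order depend on that length.

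**Figure D1:**
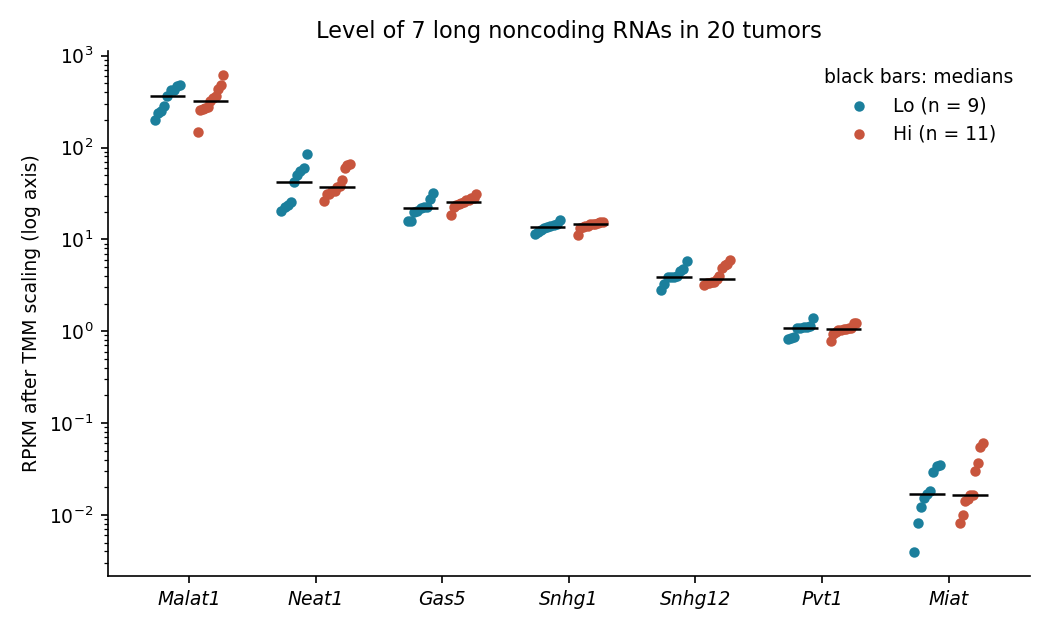
RPKM of each RNA (log axis) in each of the 9 Lo and 11 Hi tumors, 1 point per tumor, with the group medians as black bars. The 7 RNAs span from 0.0217 RPKM (Miat mean) to 345 RPKM (Malat1 mean), Lo and Hi points overlap for each, and Miat in Hi 11, at a count of 0, has no point on the log axis.

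The RNAs also differed in how much they varied from tumor to tumor. The log2 CPM of Neat1 had an SD of 0.59 and that of Malat1 an SD of 0.50, above 86.2% and 80.1% of the genes tested, whose median SD was 0.25. Snhg12 (0.31) and Gas5 (0.29) lay near that median, as did Pvt1 (0.21). Snhg1 was the steadiest, with an SD of 0.15, below which lay 15.04% of genes.

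Malat1 (ENSMUSG00000092341) lies at 5795690 to 5802672 of Chr19 on the minus strand (mm10) and is listed at 6983 bases, its whole span. In the Lo tumors its level was 1392 CPM at the lowest, 2551 CPM at the median and 3358 CPM at the highest. In the Hi tumors the lowest was 1042 CPM (Hi 7), the median 2242 CPM and the highest 4347 CPM (Hi 4), so that the Hi range enclosed the Lo range and the extremes were 4.17-fold apart. These values rest on 45088 to 229281 counts. On the other strand, a row that GENCODE marks as yet to be tested experimentally (RP24-458F14.4) lies within Malat1 and held 8.87% to 11.2% as many counts as Malat1. Without a stated strand setting, its reads cannot be told from those of Malat1.

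Neat1 (ENSMUSG00000092274), 22036 bases further along Chr19, spans 5824708 to 5845478 on the same strand, listed at its whole span of 20771 bases. The Lo tumors had 421 CPM at the lowest (Lo 4), 884 CPM at the median and 1769 CPM at the highest (Lo 8). Those labelled Hi had 550 CPM, 763 CPM and 1389 CPM. Here the Lo range enclosed the Hi range, and the extremes were 4.197-fold apart. A small set of rows for conserved blocks near the 5′ end of Neat1, which its short and long forms share, show where some of its reads lie. Gm28006 (122 bases, centered 502 bases from the 5′ end), Gm27505 (110 bases) and Gm27533 (152 bases) held 6.33%, 6.56% and 7.25% as many counts as the whole of Neat1 at the median over tumors. The short and long forms were counted in 1 row and cannot be separated.

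Pvt1 (ENSMUSG00000097039) spans 62037986 to 62378096 of Chr15 on the plus strand, with a listed length of 6996 bases. Its level was 5.81, 7.58 and 9.79 CPM at the lowest, median and highest Lo tumor and 5.43, 7.38 and 8.68 CPM in the Hi tumors. Lo 8 was the highest of the 20 tumors for Pvt1 as for Neat1, and the groups overlapped. Between 237 and 533 counts stand behind each of these values.

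Among the host genes, Gas5 (ENSMUSG00000053332, 161034422 to 161038539 of Chr1) had 59.2, 83.6 and 120.1 CPM at the lowest, median and highest Lo tumor and 68.5, 96.1 and 116.5 CPM in the Hi tumors. Lo 8 and Lo 11 were the lowest, at 59.2 and 60.1 CPM, and the groups overlapped. Snhg1 (ENSMUSG00000097188, 8723496 to 8726442 of Chr19) ranged from 33.0 CPM (Hi 5) to 48.5 CPM (Lo 6), which is 1.47-fold. Snhg12 (ENSMUSG00000086290, 132308678 to 132311024 of Chr4) ranged from 4.52 CPM (Lo 3) to 9.70 CPM (Hi 5), 2.15-fold, on 188 to 596 counts. The snoRNAs have rows of their own within these genes, 8 of them in Snhg1 and 4 in Snhg12. Snord22 held 5.51% to 12.6% as many counts as Snhg1. Mature snoRNAs have no poly(A) tail, and whether these reads come from snoRNAs or from unspliced host RNA was not tested. Gas5 also overlaps the start of Zbtb37, a protein-coding gene on the opposite strand. The row of Zbtb37, most of which lies outside Gas5, held 14.2% to 28.3% as many counts as Gas5. How many of these reads fall in the overlap is not known, and without a stated strand setting they cannot be told from those of Gas5.

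Miat (ENSMUSG00000097767, 112213228 to 112229395 of Chr5) was nearly absent. It had between 0 and 26 counts per tumor, with a median of 8.0, and at least 10 counts in 8 tumors. Hi 11 had a count of 0, which allows up to 3 counts or 0.0566 CPM. A median of 8.0 counts carries a counting error of 35.4% alone, so that its differences between tumors could be resolved only in part. The mean was 0.178 ± 0.103 CPM (SD, n = 9) in Lo and 0.221 ± 0.181 CPM (SD, n = 11) in Hi tumors (two-sided exact permutation test, p = 0.536).

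No RNA of the set passed the test between Lo and Hi tumors. At an adjusted p under 0.05, edgeR's quasi-likelihood test called 0 of the 18883 genes tested (0%), with 1045 genes at an unadjusted p under 0.05, and DESeq2 called 1. The log2 difference, Hi minus Lo, was -0.02 for Malat1 (SE 0.210), -0.01 for Neat1 (SE 0.248) and 0.00 for Pvt1 (SE 0.100). Gas5 had the largest of the 6, at 0.20 (SE 0.113, edgeR adjusted p = 0.968). These standard errors leave room for differences between the groups that 20 tumors would not resolve. The test sets each difference against the spread between tumors, each from its own mouse. The number before Lo or Hi in the titles runs mostly in stretches of Lo or of Hi tumors. An effect of that order was not tested.

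Malat1 and Neat1 were correlated across tumors. Their log2 CPM had a Pearson's r of 0.706 (permutation p = 0.000470, n = 20) and a Spearman's rho of 0.782 (permutation p = 4e-05). The r was 0.745 within the Lo and 0.751 within the Hi tumors, and 0.731 without the tumors with the most extreme Malat1 levels, Hi 4 and Hi 7. In edgeR's fit on Malat1, Neat1 rose by 0.81 log2 units per log2 unit of Malat1 (SE 0.181, adjusted p = 0.00470). The log2 share of the ribosomal RNA locus had an r of 0.649 with Malat1 and 0.673 with Neat1 within the Hi tumors, against 0.03 and -0.51 within Lo, and of 0.267 and -0.19 over all tumors (permutation p = 0.253 and 0.423). With that share as a term, the Neat1 slope was 0.97 (edgeR adjusted p = 0.000378). The ratio of the 2 RNAs still varied, since Malat1 had between 1.61 (Hi 7) and 4.83 (Lo 2) times the CPM of Neat1. In the plot of pairs of RNAs, Hi 7 lies off the trend, with the lowest Malat1 and a middling Neat1 of 648 CPM.

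Neat1 was also correlated with Pvt1 (r = 0.734, permutation p = 0.000180, and rho = 0.642, permutation p = 0.00303). Pvt1 lies on another chromosome and had a mean of 7.33 CPM against 886 CPM. The r was 0.848 within Lo and 0.542 within Hi tumors, where it did not pass (permutation p = 0.0842), and 0.602 without Lo 4 and Lo 8. In edgeR's fit on Neat1, Pvt1 rose by 0.26 log2 units per unit (SE 0.0654, adjusted p = 0.0121). Without any single tumor this slope stayed between 0.22 and 0.29, with the highest adjusted p, 0.0479, without Lo 8. Malat1 and Pvt1 had an r of 0.486 (permutation p = 0.0298 and rho = 0.538, permutation p = 0.0153), which was 0.638 without Hi 4 and Hi 7, 0.783 within Lo and 0.233 within Hi tumors. The slope of Malat1 in the fit on Pvt1 did not pass with edgeR (1.23, SE 0.470, adjusted p = 0.105) and passed with DESeq2 (adjusted p = 0.0376).

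**Figure D2:**
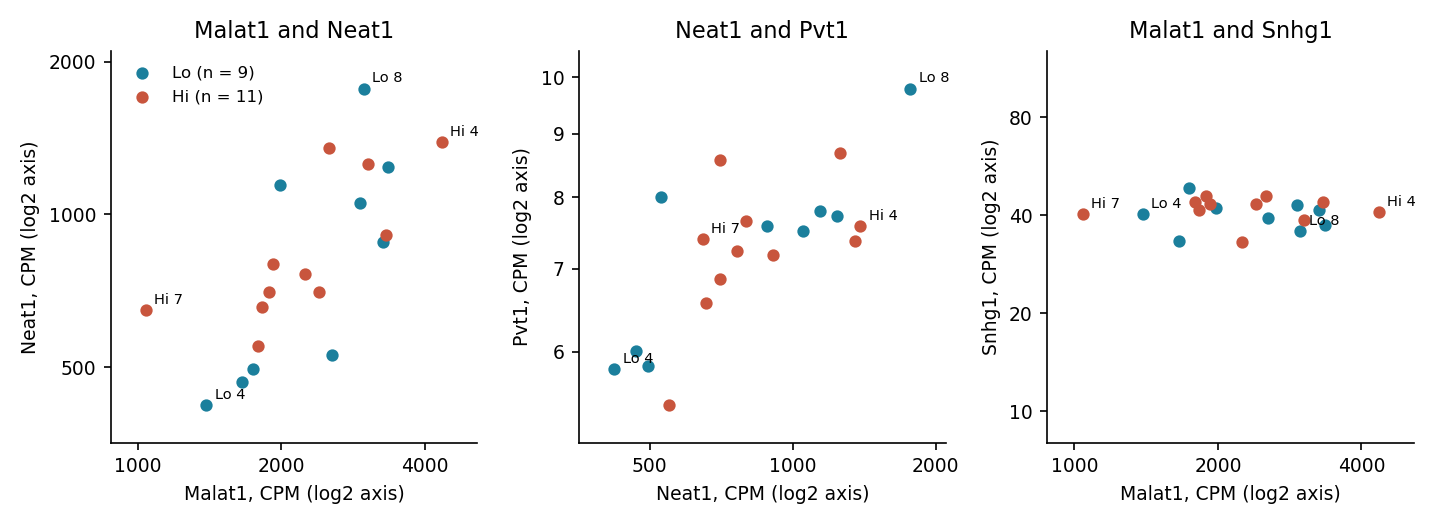
CPM (log2 axes) of pairs of RNAs, 1 point per tumor. Neat1 rises with Malat1 (r = 0.706) and Pvt1 with Neat1 (r = 0.734), with Lo 8 highest for both Neat1 and Pvt1, while Snhg1 stays between 33.0 and 48.5 CPM across the range of Malat1 (r = -0.07).

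No relation of the snoRNA host genes with Malat1 or Neat1 passed. Gas5, Snhg1 and Snhg12 had r between -0.08 and 0.30 with these RNAs, and none passed in edgeR's fits on Malat1 or on Neat1. The Snhg1 slope was -0.02 in both fits (SE 0.0679 and 0.0580), and of the 3 it had the narrowest error. For Neat1 and Gas5, r rose from 0.195 to 0.520 without Lo 4 and Lo 8, so this value depends on tumors at the ends of the Neat1 range.

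Gas5 and Snhg1 had an r of 0.532 (permutation p = 0.0162 and rho = 0.505, permutation p = 0.0248). It fell to 0.242 without Lo 8 and Lo 11, the tumors with the least Gas5, and so rests on them. Within Lo it was 0.582 and within Hi 0.387, and the slope of Snhg1 in the fit on Gas5 did not pass (0.26, SE 0.108, edgeR adjusted p = 0.329). Miat and Snhg12 had an r of 0.554 (permutation p = 0.0105 and rho = 0.588, permutation p = 0.00725), 0.632 without Hi 6 and Hi 11, 0.382 within Lo and 0.649 within Hi, at the low counts of Miat. Of the 21 pairs, 5 had an unadjusted permutation p under 0.05, and the other 16 had r between -0.19 and 0.30. Of these, Snhg1 and Pvt1 went from -0.19 to -0.52 without Hi 5 and Lo 11, the tumors farthest out in Snhg1. The number of pairs with p under 0.05 was 6 when the farthest tumors of each pair were left out and 7 on log2(RPKM + 1).

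**Figure D3:**
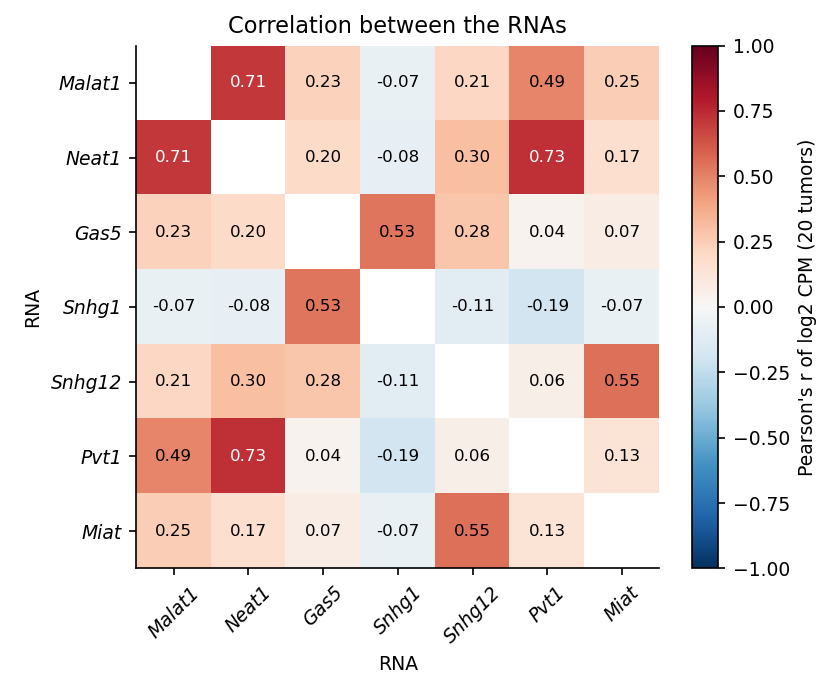
Pearson's r of log2 CPM over the 20 tumors for each of the 21 pairs of RNAs. Malat1, Neat1 and Pvt1 form a block of high values (0.49 to 0.73). Miat with Snhg12 (0.55) and Gas5 with Snhg1 (0.53) lie within the same range, and Snhg1 is near or below 0 with every RNA but Gas5.

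Relations with the rest of the genes were tested in 1 fit per RNA, whose slope is the change of a gene in log2 units per log2 unit of that RNA. With Malat1, 2806 genes passed at an adjusted p under 0.05 (14.9% of those tested), of which 1708 rose (9.05%) and 1098 fell (5.82%). With Neat1, 2515 passed (13.3%), 1737 rising (9.2%) and 778 falling (4.12%). With Pvt1, 1541 passed (8.16%), 917 rising (4.86%) and 624 falling (3.3%). The number with Neat1 was 1512 when Lo 4 was left out. These fits share all tumors, and their RNAs are correlated with each other, so that the values below are set side by side and are not separate evidence. The gene lists below were chosen with earlier results of these data known, so their counts beside those of all genes are descriptions. Neat1 held rank 368 of 13828 genes by its r with Malat1, Malat1 rank 600 and Pvt1 rank 496 by r with Neat1.

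Rows that overlap Malat1, with r from 0.970 to 0.981, were left out of this ranking. Most of the genes nearest to Malat1 in pattern were provisional or noncoding entries. The 5 highest r belonged to Olfr613 (0.966), RP24-355N14.3 (0.962), Gm26905 (0.962), RP23-390I1.6 (0.954) and RP23-431L24.2 (0.952), each rising with Malat1 in edgeR's fit. Olfr613 is annotated as an olfactory receptor gene, and the others as noncoding, pseudogene or provisional entries. RP24-355N14.3 is placed on ChrY although all mice were female, and where its reads come from was not tested. The 5 lowest r were those of 2010107E04Rik (-0.88), Rhoa (-0.87), Tmed10 (-0.87), Lamtor5 (-0.87) and Atox1 (-0.86). All 5 are protein-coding genes that fell with Malat1, with slopes from -0.21 for Rhoa, a small GTPase of the cytoskeleton, to -0.38 for 2010107E04Rik (now Atp5mpl, a subunit of the mitochondrial ATP synthase).

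Apart from rows that overlap it (r from 0.986 to 0.991), Neat1 was followed most closely by Leng8 (r = 0.949), Gm21781 (0.945), Ankrd24 (0.943), AI480526 (0.939) and Map4k2 (0.934). The slope of Leng8 was 0.78 (SE 0.0617). At the other end lay Snw1 (-0.85), Nhp2l1 (-0.83), Sumo3 (-0.83), Cdc5l (-0.83) and Rfk (-0.82), of which Snw1, Nhp2l1 and Cdc5l encode proteins of the spliceosome. The genes nearest to Pvt1 were 6430550D23Rik (r = 0.895), Mum1 (0.871) and Rpap1 (0.860), each rising with it.

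Long noncoding genes made up a large share of the genes that rose with Malat1. Among the 1659 with a GENCODE type, 37.1% were long noncoding, against 2.56% of the 1093 falling genes and 12.4% of the 18662 genes tested. For Neat1 these shares were 26.9% of rising and 2.58% of falling genes, and for Pvt1 20.99% and 3.05%. The median listed length was 2990.5 bases for genes rising with Malat1, 1880.5 bases for those falling and 3103.5 bases for all. With Neat1 the falling genes had a median of 2588.0 bases, and with Pvt1 3837.0 bases.

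Of 13 other long noncoding RNAs tested, 6 rose with Malat1 and none fell. Of all genes, 9.05% rose with Malat1, 9.2% with Neat1 and 4.86% with Pvt1. The median slope of the 13 was 0.65, against -0.02 over all genes. Kcnq1ot1, an imprinted antisense RNA, had the steepest slope (1.32, SE 0.116), followed by Airn (0.82, SE 0.118), also imprinted. Firre (0.70, SE 0.108) and Xist (0.68, SE 0.0734) were the others of the 4 with the smallest p. Xist coats the inactive X chromosome and, like Malat1, is kept in the nucleus, and Firre is another noncoding RNA of that chromosome. With Neat1, 5 of the 13 rose (Airn 0.75, Firre 0.65, Dleu2 0.45 and Xist 0.45 among them), and with Pvt1 Firre (1.45) and Airn (1.56). The count with Pvt1 was 5 with DESeq2. Tsix, which also rose with Malat1, is antisense to Xist and its reads cannot be told from those of Xist.

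Proteins of nuclear speckles had transcripts that rose with Malat1 in 9 of 16 cases, with Neat1 in 10 and with Pvt1 in 5, and none fell. The shares of all genes that rose were 9.05%, 9.2% and 4.86%. The median slope of the speckle genes was 0.23 with Malat1, 0.22 with Neat1 and 0.46 with Pvt1, against medians of -0.02, -0.02 and -0.04 over all genes. With Malat1 the leading ones were Srrm2 (0.49, SE 0.0720) and Son (0.30, SE 0.0504), the large scaffold proteins of the speckle. Next came Clk4 (0.46, SE 0.0801) and Clk1 (0.46, SE 0.0893), kinases that phosphorylate splicing factors and release them from speckles. With Neat1 they were Clk4 (0.43), Srsf5 (0.50), Srsf2 (0.31) and Pnn (0.34), and with Pvt1 Srrm2 (1.05), Pnn (0.81), Acin1 (0.47) and Clk4 (0.84). Without a filter on low counts, 2 in place of 5 passed with Pvt1.

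Paraspeckle proteins, which assemble on Neat1, were a mixed group. Of 14 tested, 4 rose with Malat1 (Hnrnph3 0.31, Rbm14 0.24, Cpsf6 0.17 and Tardbp 0.17), with a median slope of 0.11, where 9.05% of all genes rose. With Neat1, where 9.2% of all genes rose and 4.12% fell, 4 of the list rose and 1 fell, with a median slope of 0.08. Among those rising were Hnrnph3 (0.36, SE 0.0505), Ewsr1 (0.21, SE 0.0489) and Dazap1 (0.16). Nudt21, a subunit of the complex that sets the poly(A) site of Neat1, fell (-0.19, SE 0.0542, edgeR adjusted p = 0.0249). Sfpq, Nono and Pspc1, the core proteins of paraspeckles, did not pass with any of the 3 RNAs, with slopes from -0.06 to 0.05 with Malat1 and from -0.06 to -0.01 with Neat1. Without a filter on low counts, 1 passed with Malat1 and 2 rose with Neat1, so the count of this list depends on that filter.

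Several other host genes of snoRNAs passed in these fits, in which Gas5, Snhg1 and Snhg12 did not (the difference was not tested). Of 12 tested, 6 rose and 1 fell with Neat1, 5 rose with Pvt1 and 4 rose with Malat1. Of all genes, 9.2% rose and 4.12% fell with Neat1, 4.86% rose with Pvt1 and 9.05% rose with Malat1. Snhg17 (0.58, SE 0.0718), Snhg20 (0.56, SE 0.0842), Snhg16 (0.38, SE 0.0605) and Snhg7 (0.44, SE 0.105) led with Neat1. Snhg20 (1.501), Snhg17 (1.52), Snhg7 (1.34) and Snhg15 (1.09) led with Pvt1, and Snhg4 (0.45), Snhg17 (0.55), Snhg7 (0.46) and Snhg16 (0.31) with Malat1. The gene that fell with Neat1 was Snhg18 (-0.27, SE 0.0750).

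Genes of the translation machinery whose mRNAs start with a 5'TOP fell where they passed. Of 20 tested, 10 fell with Malat1 and 13 with Neat1, and none rose, where 5.82% and 4.12% of all genes fell. Their median slope was -0.22 with Malat1 and -0.19 with Neat1, against -0.02 over all genes in both fits. With Malat1 these were led by Rpl32 (-0.37, SE 0.0592), Eef1g (-0.29, SE 0.0556), Eef1d (-0.24) and Eef1b2 (-0.25), a ribosomal protein and 3 subunits of elongation factor 1. With Neat1 they were led by Tpt1 (-0.24, SE 0.0589), Rpl5 (-0.24), Eef1b2 (-0.20) and Rps3 (-0.22). Without a filter on low counts, 6 fell with each. None passed with Pvt1, where Pabpc1 and Tpt1 had the smallest p (edgeR adjusted p = 0.0625 and 0.128), or with Gas5 or Snhg1. With Snhg12, Pabpc1 fell (-0.65).

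**Figure D4:**
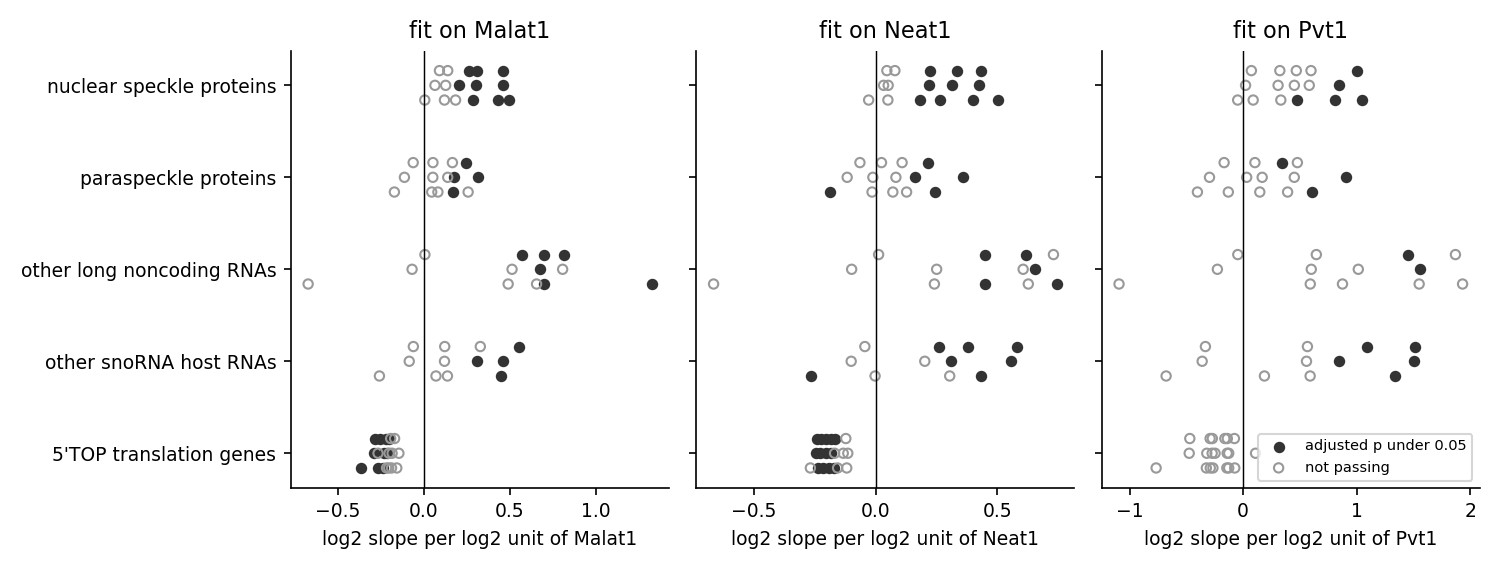
Slope of each gene of 5 lists (rows) in the fits on Malat1, Neat1 and Pvt1, in log2 units per log2 unit of the RNA, filled where the adjusted p of edgeR's test was under 0.05. Nuclear speckle proteins lie to the right of 0 (9, 10 and 5 of 16 filled) and 5'TOP genes to the left (10, 13 and 0 of 20 filled), and horizontal scales differ between panels.

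The other lists gave few calls in these fits. Of all genes, 9.05% rose and 5.82% fell with Malat1, and 9.2% rose and 4.12% fell with Neat1. A single call among 10 or 12 genes lies near these shares and is no result about its list. Of 12 factors of nonsense-mediated decay, Smg1 (0.27) and Upf3b (0.31) were among 3 that rose and Eif4a3 (-0.24) fell with Malat1, while Upf3b (0.27) rose and Upf2 (-0.20) fell with Neat1. Atf3, a stress-induced transcription factor, fell with both Malat1 (-0.55) and Neat1 (-0.44), the 1 called gene of 10 ATF4 targets. Phlda3 of 10 p53 targets (-0.47) and Egln3 of 10 hypoxia genes (-0.27) fell with Malat1. Npm1 (-0.20) and Ncl (-0.27) of 10 genes of the Myc list fell with Neat1. None of 10 proliferation genes passed with any of the 7 RNAs. Aurka and Cdk1, mitotic kinases, had the smallest p of them with Malat1 (edgeR adjusted p = 0.290 and 0.413).

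Few marker genes of cell types passed in these fits. Of the 51 markers tested over 11 lists, 5 fell with Malat1 (9.8%, against 5.82% of all genes) and none rose. Laptm5 (-0.38) of 5 leukocyte genes fell, as did C1qa (-0.29) and C1qb (-0.27) of 5 macrophage genes, Krt18 (-0.33) of 5 epithelial genes and Acta2 (-0.48) of 5 myoepithelial genes. Of the myoepithelial genes 2, and of the leukocyte genes 1, had a positive slope that did not pass. No marker of T cells, B cells, fibroblasts, endothelial cells, adipocytes, skeletal muscle or nerve passed. With Neat1, and likewise with Pvt1, Cd53 of the leukocyte genes fell (-0.28 and -1.001), the 1 marker of 51 called in each of these fits (1.96%, against 4.12% and 3.3% of all genes falling). The summed epithelial markers had an r of -0.65 with Malat1 and of -0.63 with Neat1 over the 20 tumors. For the summed macrophage markers r was -0.63 and -0.42. The sums of leukocyte, adipocyte, fibroblast, endothelial, myoepithelial and muscle markers also had a negative r with Malat1, from -0.50 to -0.25. Those of T cells, B and plasma cells and nerve had r from 0.14 to 0.18. With Neat1 each sum had the same sign. These values are descriptions without a test. Macrophage genes summed to between 201 and 315 CPM in Lo and between 218 and 322 CPM in Hi tumors, and leukocyte genes to between 68.3 and 115.6 and between 78.3 and 111.7 CPM, with none at 0. Epithelial genes summed to between 2685 and 3669 CPM in Lo and between 2364 and 3755 CPM in Hi tumors. Of the other lists, genes that include Cd3d and Cd2 (T cells), Ms4a1 and Mzb1 (B and plasma cells), Plin1 and Lep (adipocytes), Krt5 (myoepithelial cells) and Myl1 (skeletal muscle) were at 0 in at least 1 tumor. The part of these cells in the relations of Malat1 and Neat1 was not tested, and in bulk tissue fewer cells of a type and less RNA per cell cannot be told apart.

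Pvt1 was compared with Myc, its neighbor at 61985341 to 61990374 of Chr15, 47612 bases away. Myc had a slope of 0.20 per log2 unit of Pvt1 (SE 0.181, edgeR adjusted p = 0.526), so that no relation between them was detected. Of 10 genes of the Myc list, Nop56 (0.89, SE 0.217), a snoRNP core protein, and Cad (0.87, SE 0.241), an enzyme of pyrimidine synthesis, rose with Pvt1, and none fell. Of all genes, 4.86% rose with Pvt1. Pvt1 showed no relation with the dosage of Chr15 that passed (slope -1.09, SE 0.634, edgeR adjusted p = 0.406, with 1.73% of genes called).

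Tumors of this model gain and lose chromosomes. For the dosage of a chromosome, the log2 CPM of each gene was taken relative to its own median over the tumors. The dosage is the median of these values over the chromosome, less that over all autosomal genes. It compares tumors with each other and does not give a copy number. The paper reports clonal loss of a Chr4 copy in all F1 tumors that it karyotyped. Snhg12 followed the dosage of its own chromosome, Chr4. Its slope was 1.77 log2 units per unit of dosage (SE 0.351, edgeR adjusted p = 0.00276), where 5.67% of all genes were called and the 1165 genes tested on Chr4 had a median slope of 0.93. The correlation had an r of 0.777 (permutation p = 4e-05 and rho = 0.668, permutation p = 0.00172), 0.826 within Lo, 0.759 within Hi and 0.668 without Hi 5 and Lo 7. Hi 5, the tumor with the highest Chr4 dosage (0.37), had the most Snhg12 (9.70 CPM), and Lo 3 (-0.19) had the least (4.52 CPM). Without any single tumor the slope stayed between 1.64 and 1.94 and passed, while the number of genes called with Chr4 dosage fell from 1070 to 520 without Hi 5. This dosage is measured from RNA. Of the 51 cell type markers, 8 rose with it (15.7%) and none fell, where 785 of all 18883 genes rose. How many of these markers lie on Chr4 was not counted, and the part of other cells in this dosage was not tested.

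The genes that moved with Snhg12 were in large part genes of Chr4. In the fit on Snhg12, 480 genes passed (2.54%; 924 with DESeq2), and 180 of the 302 that rose (59.6%) lie on Chr4, which holds 6.16% of the genes tested. The rows of snoRNAs within Snhg12 also lie on Chr4 and were not left out of this count. Zdhhc18 (r = 0.900), Mob3c (0.864) and Epha2 (0.862), the nearest in pattern, all lie on Chr4. So do Srrm1 (0.42, SE 0.0748), the 1 speckle gene that rose with Snhg12, and the adjacent gene Trnau1ap (0.52, SE 0.134, edgeR adjusted p = 0.0377). Of 10 hypoxia genes, 4 fell with Snhg12. These were the glycolytic enzyme Pgk1 (-1.11, SE 0.147), the mitophagy factor Bnip3 (-1.58, SE 0.236), Ankrd37 (-1.50, SE 0.270) and the kinase Pdk1 (-0.74, SE 0.193). The same 4 also fell with the Chr4 dosage itself, with slopes of -2.51, -3.03, -3.52 and -1.66. Of the 10 hypoxia genes, 6 fell with that dosage. Snhg12 and the dosage of Chr4 cannot be told apart as the measure that these genes follow. Ldha (-0.72) of the Myc list and Perp (-0.46) of the p53 targets also fell with Snhg12, and the leukocyte gene Ptprc rose (0.60).

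Gas5 had a slope of 1.66 on the dosage of Chr1 (SE 0.570), which did not pass (edgeR adjusted p = 0.181, with 1.36% of genes called). The r was 0.547 (permutation p = 0.0118), 0.492 within Lo and 0.785 within Hi, while rho was 0.343 (permutation p = 0.139), and r was 0.443 without Lo 8 and Lo 11. Chr1 dosage was low in Lo 8 (-0.30), Hi 7 (-0.23) and Hi 5 (-0.14), where Gas5 was at 59.2, 68.5 and 90.6 CPM. Lo 11 had as little Gas5 (60.1 CPM) at a Chr1 dosage of 0.01. In the fit on Gas5, 33 genes passed (0.175%), 7 rising and 26 falling. Of the 7 rising, 5 lie on Chr1, which holds 7.16% of the genes tested. Rows of snoRNAs within Gas5 also lie on Chr1 and were not left out of this count. How many of the 5 they make up was not counted, so this share is no result about Chr1. With DESeq2, 236 genes passed.

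**Figure D5:**
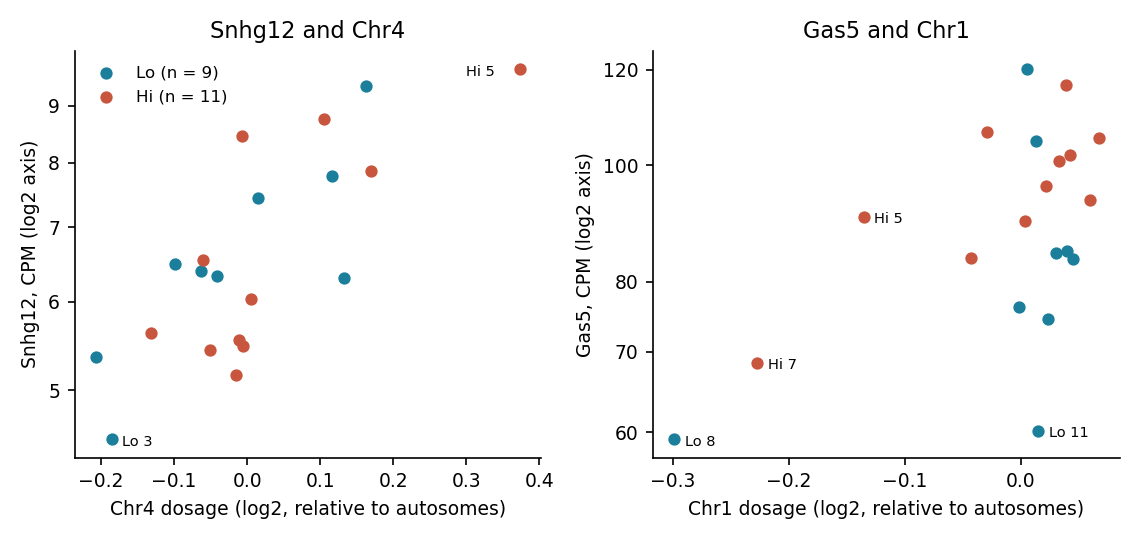
CPM (log2 axis) of Snhg12 against the dosage of Chr4 and of Gas5 against that of Chr1, 1 point per tumor. Dosage is in log2 units relative to all autosomal genes and to each gene's median over the tumors. Snhg12 rises with Chr4 dosage (r = 0.777), and for Gas5 (r = 0.547) Lo 8 and Hi 7 combine low dosage with low levels, while Lo 11 is low without a low dosage.

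Slc2a1 (-0.94, SE 0.151), a glucose transporter, and Adm (-2.04, SE 0.346), a vasodilator peptide, were the 2 hypoxia genes that fell with Gas5. Cdkn1a, the cell cycle inhibitor that p53 induces, fell too (-1.70, SE 0.305, edgeR adjusted p = 0.0172). Apart from rows that overlap Gas5, the nearest in pattern were Tsen15 (r = 0.797, which did not pass, edgeR adjusted p = 0.0570), RP23-349N4.5 (0.781) and Gm16586 (0.752). Of these, Tsen15 and Gm16586 lie on Chr1. Nearby on Chr1, Serpinc1 (slope 0.73, adjusted p = 0.280) did not pass in edgeR's fit.

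The slopes of Malat1, Neat1 and Snhg1 on the dosage of Chr19, which they share, did not pass (-3.21, 9.49 and -1.41, SE 5.15, 5.56 and 1.67, with 3.66% of genes called). This dosage had an SD of only 0.0201 over tumors, against 0.136 for Chr4, so the slopes are poorly determined. For Neat1 the r with this dosage was 0.342 over all tumors (permutation p = 0.140), 0.816 within Lo and -0.32 within Hi, and -0.02 without Lo 4 and Lo 8. For Malat1 it was -0.09 over all tumors (permutation p = 0.722), 0.523 within Lo and -0.55 within Hi. The difference between the groups was not tested. Frmd8os, 145 bases from the 5′ end of Neat1, had a slope of 0.00 with Neat1 (SE 0.105). Snhg1 had no relation that passed with Slc3a2, the amino acid transporter gene 127 bases away on the other side of its start (0.12, SE 0.241), or with Wdr74 (0.20, SE 0.242).

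No gene passed in the fit on Snhg1 (0%) by edgeR, with 920 at an unadjusted p under 0.05 and 1 called by DESeq2. Bcap29 (r = 0.730), Hnrnpd (0.723) and Lrpprc (0.714) were nearest in pattern and did not pass. Nor did any gene pass in the fit on Miat (0%) by edgeR, with 1176 at an unadjusted p under 0.05 and 2 called by DESeq2. Dnmbp (0.738), Exoc3l4 (0.732) and Nfic (0.686) had the highest r with Miat, at its low counts.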

How the data were processed

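RNA of 20 tumors, 1 per mouse, was prepared with a TruSeq mRNA kit and sequenced in paired reads, which the authors shortened before alignment. The submitters' processing notes name TopHat2 2.0.12, featureCounts 1.4.4 and the build mm10, to which the coordinates of the table belong. The deposited values are raw counts per gene, 1 column per tumor, without normalization. Neither the strand setting nor the release of the annotation is given in the sources used here, so overlapping, antisense and near-identical genes are uncertain. Tumors were grouped by the Lo or Hi of their titles.

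Counts were analysed with edgeR 4.0.16 in R 4.3.3 (filterByExpr with its minimum of 10 counts, TMM, quasi-likelihood tests, Benjamini-Hochberg adjustment at 0.05 over all genes tested), and log2 CPM used a prior count of 2. Fits took as covariate Lo or Hi, the centred log2 CPM of 1 RNA, or the dosage of 1 chromosome (genes averaging 5 CPM or more, the 7 RNAs left out). CPM and RPKM were computed here from the counts and the listed length. Correlations have two-sided p-values from 100000 permutations, and single values between Lo and Hi were tested over all 167960 assignments. DESeq2 1.42.0, other size factors, no filter, library sizes without the ribosomal RNA locus, further terms and left-out tumors were alternatives, those leaving out each tumor in turn, and the fit on tumors with a number in both groups without that number, added after the data were seen. Other values came from Python 3.11.15 (scipy 1.17.1, pandas 2.3.3, numpy 2.4.6), and the fits were tested on simulated counts.

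Promoter sequences are RefSeq entries (GRCm38.p6), and gene types and strands are from GENCODE for the same build. The members, the 11 pathway lists and the 11 marker lists were chosen with earlier results of these data known. Of 196 list entries, 3 (Norad, Snhg8 and Epb4.1l4aos) had no row and 9 were matched by gene ID or older symbol. Genes named are the 7 RNAs, the 5 highest and 5 lowest in r with Malat1 and Neat1 (the 3 highest for the others, at a mean log2 CPM of at least 1), up to 4 passing genes of a list by the smallest p, otherwise the 2 with the smallest p, overlapping and nearest genes, Yam1 and AY036118. Rows that overlap an RNA were left out of its ranking by r. Tsix, Dazap1, Snhg18, Sfpq, Nono and Pspc1 were named after their values were seen. Counting intervals and floors reflect counting error alone, as no molecular identifiers were read. The number after Lo or Hi in the titles does not pair tumors, each from its own mouse. Where a list gave no call in a fit, its genes are mostly not named, and some genes that the rule names are not reported here.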

Additional observations from a re-analysis of the deposited data

How the results depend on the processing

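Alternatives were tried 1 at a time. DESeq2 changed the size factors with the test, log2(RPKM + 1) the scaling with the offset, and the replicate block the tumors with the model. The slopes of Neat1 on Malat1, of Pvt1 on Neat1 and of Snhg12 on the dosage of Chr4, and the correlation of Malat1 with Neat1, kept their direction and passed under every alternative run. The correlation of Neat1 with Pvt1 did so except within the Hi tumors (r = 0.542). With each tumor left out in turn, the Neat1 slope ranged from 0.73 to 1.06, the Pvt1 slope from 0.22 to 0.29 and the Snhg12 slope from 1.64 to 1.94, while r ranged from 0.665 to 0.756 for Malat1 with Neat1 and from 0.663 to 0.810 for Neat1 with Pvt1. The number of genes called ranged from 1966 to 2956 with Malat1, from 1512 (without Lo 4) to 2655 with Neat1 and from 520 (without Hi 5) to 1106 with the dosage of Chr4, where it was 1070 with all tumors.

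The cause of the following changes was not tested. DESeq2 called 1 gene between Lo and Hi, 1 with Snhg1, 2 with Miat, 236 with Gas5 in place of 33 and 924 with Snhg12 in place of 480. Without a filter on low counts, 1 gene was called between Lo and Hi, 7 with Miat, 9 with Snhg1 and 212 in place of 326 with the dosage of Chr15. The share of the ribosomal RNA locus as a further term gave 101 genes with Gas5. Of the 21 pairs of RNAs, 3 had an unadjusted p under 0.05 in the Lo and 2 in the Hi tumors, where fewer tumors entered, in place of 5. Between Lo and Hi, the log2 difference of Pvt1 was 0.00 on the other side of 0 with DESeq2 size factors (0.0034) and with DESeq2 (0.0029).

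Tumors of the same number do not come from the same mouse, and their deviations from the group means had correlations from -0.42 to 0.21, above 0.1 in 3 of 9 pairs. Fitting the number as a replicate block, in the tumors whose number occurs in both groups (Hi 5 and Hi 10 left out), called 0 genes between Lo and Hi by edgeR, with 872 at an unadjusted p under 0.05. The log2 difference was 0.0473 for Neat1 and -0.0439 for Snhg12, on the other side of 0 from the fit on all tumors, and neither passed. In the same tumors without the block, a fit added after the data were seen, edgeR called 0 genes, with 954 at an unadjusted p under 0.05, and the difference was -0.0530 for Neat1 and -0.0398 for Snhg12. Snhg12 thus changed sign with the tumors left out and Neat1 with the block. Of the 9 tumor numbers shared, 1 Lo tumor correlated best with its own number. At the counts of Miat, Pvt1 and Snhg12, depth limits what can be resolved.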
